A study of Rattus norvegicus with 18 samples.

Results

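Protein kinase C (PKC) isoforms are serine/threonine kinases encoded by separate genes. The genes Prkca, Prkcb, Prkce, Prkch, Prkci and Prkcz were described in the dorsal hippocampus of rats on a control diet, on an ethanol diet, and after withdrawal from it. They were found by symbol among the counted genes, and all 6 of them were present among 38445 genes and passed the expression cutoff that left 17853 genes for testing. RNA-seq was done on 18 adult male Sprague Dawley rats fed Lieber-DeCarli liquid diets, 6 in each of 3 groups. The control rats received the liquid diet with no ethanol. Both other groups were first brought to the full dose through a period of rising ethanol concentrations, which comes on top of the days given here. The ethanol rats then received 9% ethanol for 16 days and were killed at 0 h of withdrawal. The withdrawal rats received it for 15 days and were then switched to control diet for 24 h. The replicates are separate animals, and males only were used.

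PKC is divided by how its members are switched on. The classical isoforms (Prkca and Prkcb) need calcium and diacylglycerol, the lipid that phospholipase C releases from the membrane below Gq-coupled receptors. The calcium-independent isoforms (Prkce, Prkch and also Prkcd and Prkcq) respond to diacylglycerol alone. The atypical isoforms (Prkci and Prkcz) respond to neither and work with the polarity proteins of the PAR complex. In the hippocampus, PKC acts on presynaptic transmitter release and on the synaptic plasticity behind memory, and the brain also makes a short, constantly active kinase, PKM zeta, from an internal start of Prkcz.

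Total counts on genes lay between 30873228 and 42679748 per rat. Levels are given as CPM, counts scaled to a common library size, after TMM scaling, a correction for library composition. Differences between groups are log2 fold changes from limma-voom with 3 surrogate variables, which are unnamed sources of variation estimated from the data, and q is the p-value after Benjamini-Hochberg adjustment over all genes tested in a comparison. Genes with q < 0.1 were called. The first indices in the library names formed 3 sets. All 6 control rats had a set of their own, the 6 ethanol rats shared a set with withdrawal rats 1 and 2, and the other 4 withdrawal rats had the remaining set, so that index set and diet cannot be told apart in any comparison with the controls. A few libraries stood apart in markers of other tissue. Ethanol rat 1 had the highest summed level of 5 thalamic markers (738 CPM, against 149 to 738 over the ethanol rats and 217 to 472 over the controls). It also had the lowest sum of 3 CA1 markers among the ethanol rats (229, against 354 to 587 in the others). Withdrawal rat 5 had the highest thalamic sum of its group (553, against a group range of 174 to 553). The same rat had the lowest sums of the 3 CA1 markers (226), 5 CA3 and CA2 markers (225) and 4 dentate granule cell markers (140). In these tissue samples, fewer cells of a type and less RNA per cell cannot be told apart.

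The 2 calls among the isoforms were in different genes. Prkcb, a classical isoform, rose by 0.18 on the log2 scale between control and withdrawal, or 1.13-fold, as 1 of 6 isoforms called where 5.41% of all genes were called. Prkcz, an atypical isoform, was lower in withdrawal than in ethanol by a log2 fold change of -0.14, or 0.905-fold, as 1 of 6 called against 2.72% of all genes. Between ethanol and control 0 of 6 were called by limma-voom, against 0.493% of all genes, and 1 passed an unadjusted threshold of 0.05. Both calls were lost under other settings, Prkcb without surrogate variables (q = 0.429) and Prkcz in 9 of 18 fits that left out 1 rat. Prkca, Prkce, Prkch and Prkci were not called in any of the 3 comparisons.

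**Figure D1:**
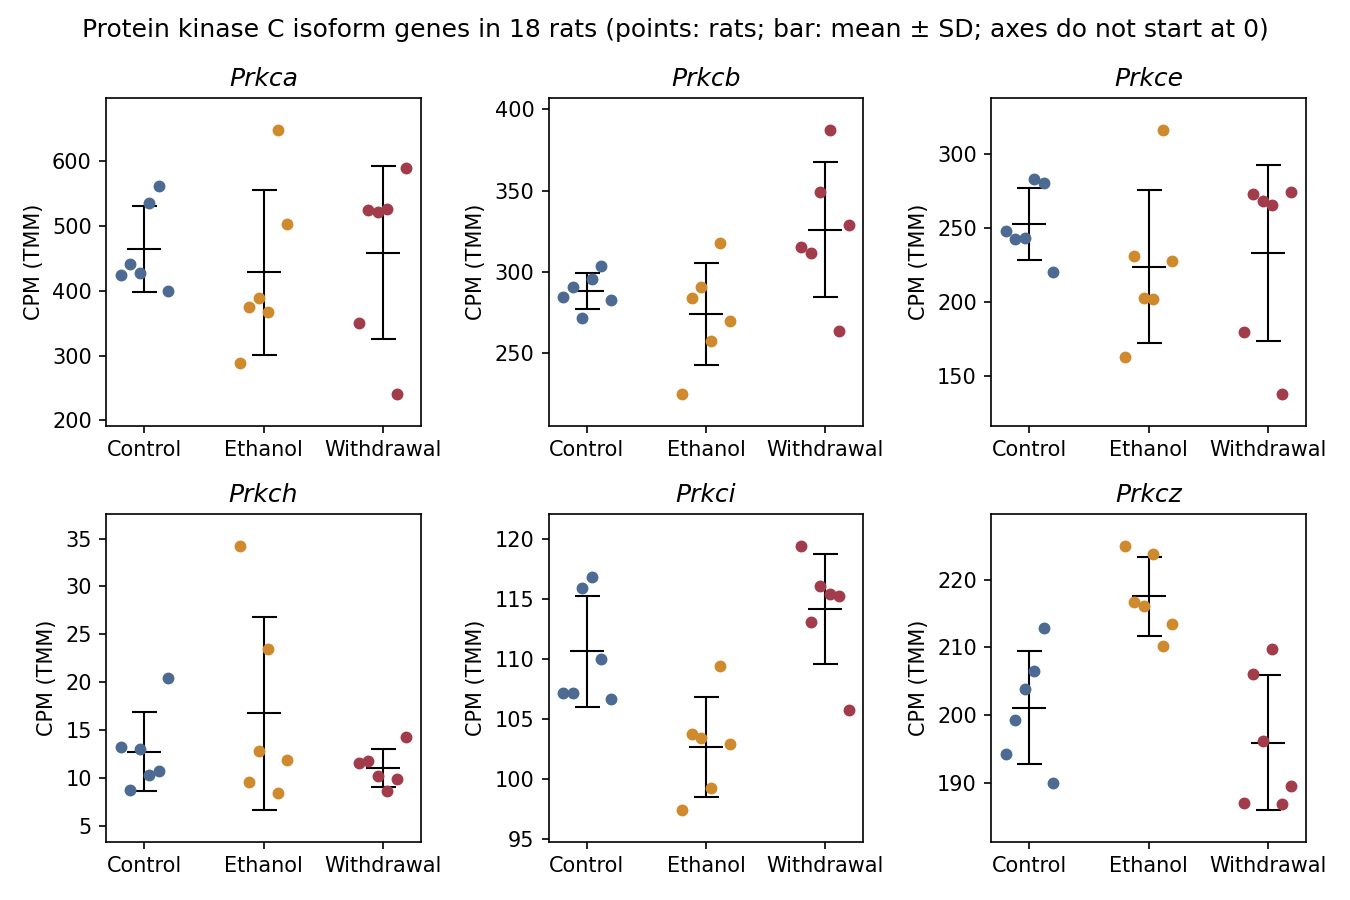
Level of each of the 6 isoform genes in TMM-scaled CPM (vertical axes, not starting at 0) in control, ethanol and withdrawal rats, with 1 point per rat and the bar giving the mean ± SD over 6 rats. The 6 withdrawal rats lay below the 6 ethanol rats for Prkcz, and 5 of 6 withdrawal rats lay above all controls for Prkcb. The groups overlapped for Prkca, Prkcb, Prkce, Prkch and Prkci in every comparison.

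The isoforms differed widely in abundance. Levels were compared between genes per kilobase of annotated exon, since exonic lengths ran from 2645 bp for Prkce to 8703 bp for Prkca. In the controls Prkce was first with 95.6 ± 9.22 CPM per kb (SD, n = 6), followed by Prkcb with 74.4 ± 2.88, Prkca with 53.4 ± 7.65, Prkcz with 30.5 ± 1.27, Prkci with 24.6 ± 1.02 and Prkch with 2.12 ± 0.691. The ranges of neighbours in this order did not overlap among the control rats. Prkce took 34% of the summed per-kilobase level of the 6 isoforms in the controls and Prkch took 0.769%. In the withdrawal rats the ranges of Prkce (52 to 104 CPM per kb) and Prkcb (68 to 100) overlapped, and Prkce was above Prkcb in 4 of 6 rats. The ranges of Prkca (27.7 to 67.8) and Prkcz (28.3 to 31.8) overlapped there too, with Prkca above in 5 of 6 rats. In the ethanol rats the ranges of Prkce (61.5 to 120), Prkcb (58 to 82), Prkca (33.2 to 74.5) and Prkcz (31.8 to 34.1) each overlapped the next. Within rats this order held in all 6, except that Prkca was above Prkcz in 5 of 6. These orders rest on the annotated exon lengths.

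On the genome build of the files (Rnor_6.0), Prkca lay on chr10:96186509-96585168 (minus strand, 18 annotated exons after merging), Prkcb on chr1:192233569-192575339 (plus, 20), Prkce on chr6:9483400-9973396 (plus, 25), Prkch on chr6:96479243-96677368 (plus, 15), Prkci on chr2:115941998-116002550 (minus, 18) and Prkcz on chr5:172658071-172769492 (minus, 22). Read pairs were counted on exons by strand. Prkca and Prkce each shared part of their span with 1 other annotated gene on the same strand.

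Promoter sequences of RefSeq (build GRCr8, 250 bases before to 50 after the annotated start) were given for 4 of the 6 genes. They are shown for Prkca and Prkce, whose levels moved together from rat to rat, and for the atypical pair Prkci and Prkcz, whose means in ethanol lay on opposite sides of the control means. All 4 are written 5′ to 3′ on the minus strand of GRCr8, the gene strand there. Capitals mark CCAAT and GGGCGG on either strand (ATTGG and CCGCCC on the other strand).
Prkca (chr10:93787278-93787577): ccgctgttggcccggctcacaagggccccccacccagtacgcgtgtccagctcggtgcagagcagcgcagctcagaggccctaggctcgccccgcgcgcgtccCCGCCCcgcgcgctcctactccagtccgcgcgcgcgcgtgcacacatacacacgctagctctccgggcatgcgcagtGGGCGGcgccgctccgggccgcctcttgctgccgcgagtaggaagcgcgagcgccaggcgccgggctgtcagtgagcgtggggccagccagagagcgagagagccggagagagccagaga
Prkce (chr6:14204239-14204538): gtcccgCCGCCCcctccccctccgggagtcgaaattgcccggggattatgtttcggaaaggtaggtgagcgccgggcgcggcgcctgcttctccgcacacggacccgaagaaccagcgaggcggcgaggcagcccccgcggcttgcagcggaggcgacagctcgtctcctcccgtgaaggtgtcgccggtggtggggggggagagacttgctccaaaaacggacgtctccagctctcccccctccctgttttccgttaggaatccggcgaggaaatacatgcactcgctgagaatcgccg
Prkci (chr2:114310735-114311034): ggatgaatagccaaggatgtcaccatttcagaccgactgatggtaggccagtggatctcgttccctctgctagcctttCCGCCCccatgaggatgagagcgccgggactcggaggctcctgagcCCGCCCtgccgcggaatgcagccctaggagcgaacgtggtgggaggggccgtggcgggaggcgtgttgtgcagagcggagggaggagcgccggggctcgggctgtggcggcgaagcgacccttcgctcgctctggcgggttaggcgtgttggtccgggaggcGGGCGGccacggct
Prkcz (chr5:171212625-171212924): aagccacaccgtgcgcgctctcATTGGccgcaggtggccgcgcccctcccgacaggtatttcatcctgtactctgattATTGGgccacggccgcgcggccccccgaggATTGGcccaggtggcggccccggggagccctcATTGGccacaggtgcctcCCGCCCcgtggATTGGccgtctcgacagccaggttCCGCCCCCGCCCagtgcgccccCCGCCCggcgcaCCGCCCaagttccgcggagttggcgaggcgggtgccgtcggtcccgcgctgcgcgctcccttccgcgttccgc

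The Prkcz window held 5 copies of CCAAT and 5 of GGGCGG, and these did not overlap each other. Prkca held 2 of GGGCGG, Prkce held 1 and Prkci held 3, and none of these 3 windows held CCAAT. Over 33469 promoters of the same length, 37.5% held at least 1 CCAAT, 33.1% held at least 1 GGGCGG and 0.218% held 5 or more CCAAT. The letters TGANTCA, TTCNNNGAA and TGACGTCA, searched on both strands, occurred in 7.33%, 8.87% and 1.83% of all promoters and in none of the 4 windows. GC content was 66.3% to 73.3% in the 4 windows, against a median of 51.7% over all promoters. A match describes letters in the window only, and the start of PKM zeta inside Prkcz is not covered by it.

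Among the classical isoforms, Prkcb showed the clearest difference in withdrawal. Its product is abundant in forebrain neurons and in immune cells. Prkcb lay between 271.5 and 303.8 CPM in the controls (median 287.5), between 224.8 and 317.8 in the ethanol rats (median 276.7) and between 263.3 and 387.5 in the withdrawal rats (median 322.1). Withdrawal rats 1, 2, 3, 4 and 6 lay above every control, and withdrawal rat 5 lay below every control, so the groups overlapped through 1 rat. Between withdrawal and control the log2 fold change was 0.18 (SE 0.043, 95% interval 0.09 to 0.27) with limma-voom q = 0.0426. The difference of the mean log2 CPM without surrogate variables was 0.17, and the two-sided exact permutation test over the 924 splits of 6 against 6 rats gave p = 0.0584. Scaled by total counts alone, the difference was 0.16 with exact permutation p = 0.0455. Prkcb was thus 1 of 6 isoforms called in this comparison, in which 5.41% of all genes tested were called (2.85% higher in withdrawal). Prkcb alone of the isoforms passed an unadjusted limma-voom threshold of 0.05, as did 19.7% of all genes.

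The call of Prkcb depended on the surrogate variables and on single rats. Without surrogate variables q was 0.429 at a log2 fold change of 0.17, and with 1 surrogate variable q was 0.193. Leaving out withdrawal rat 6 gave q = 0.175 and leaving out control rat 3 gave q = 0.103, with log2 fold changes of 0.17 and 0.16, and the 16 other fits that left out 1 rat kept the call. The number of genes called in all fell too, from 965 of 17853 to 41 without surrogate variables, 112 with 1 surrogate variable, 23 without withdrawal rat 6 and 448 without control rat 3. The summed CPM of 6 astrocyte markers ran from 2867 to 3245 in the controls. The sum lay above every control in withdrawal rats 1, 2, 3, 4 and 6 (3567 to 3951) and below every control in withdrawal rat 5 (2384). Across the 18 rats, the mean log2 CPM of these 6 markers had r = 0.613 with Prkcb (0.396 without the 2 rats farthest from the median of this mean). The 6 markers did not move together. Gfap, the largest part of the sum in withdrawal (median 945 CPM in the controls and 1472 in withdrawal), rose, Aldh1l1 and Gja1 fell, and the other 3 were not called, with a median log2 fold change over the 6 markers of 0.01. The summed CPM of 7 neuronal markers ran from 4624 to 5272 in the controls and from 4546 to 5475 in withdrawal, and that of 3 CA1 markers from 420 to 573 and from 226 to 591. Across the 18 rats Prkcb had r = 0.771 with the mean log2 CPM of the neuronal markers and 0.737 with that of the CA1 markers. Without the 2 rats farthest from the median of each mean, r was 0.594 and 0.640. The part of these markers in the difference was not tested.

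Between withdrawal and ethanol, Prkcb had a log2 fold change of 0.16 (SE 0.048, 95% interval 0.06 to 0.26) at limma-voom q = 0.108 and was not called. The exact permutation test gave p = 0.039, and 3 of 6 withdrawal rats lay above all ethanol rats. Between ethanol and control the limma-voom log2 fold change was 0.02 (95% interval -0.08 to 0.11, q = 0.925), while the difference of the mean log2 CPM was -0.08. The limma-voom test over all 3 groups at once gave q = 0.0588 for Prkcb and q = 0.0997 for Prkcz, 2 of 6 isoforms, in a test that called 5.6% of all genes.

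Prkca, the other classical isoform here and a kinase of postsynaptic plasticity, varied more within groups than between them. It lay between 399.8 and 561.9 CPM in the controls (median 434.1), between 288.8 and 648.5 in the ethanol rats (median 382.3) and between 240.9 and 590 in the withdrawal rats (median 523.3). The highest ethanol rat was rat 5 and the lowest rat 1, 4 of 6 ethanol rats lay below all controls, and withdrawal rats 5 and 1 lay below the other 4 withdrawal rats. The limma-voom log2 fold changes were 0.04 for withdrawal against control (95% interval -0.04 to 0.13, q = 0.591), -0.05 for ethanol against control (-0.14 to 0.04, q = 0.667) and 0.09 for withdrawal against ethanol (0.00 to 0.19, q = 0.307). For withdrawal against control, the difference of the mean log2 CPM had the other sign, -0.07.

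**Figure D2:**
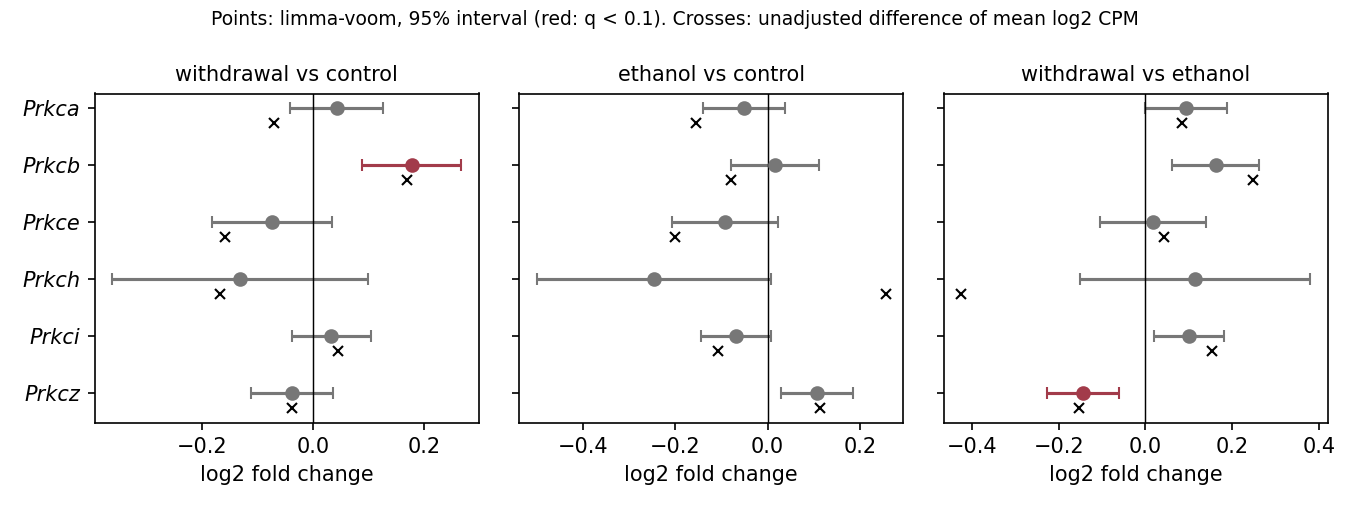
Log2 fold change of each isoform gene in the 3 comparisons (horizontal axes), as the limma-voom estimate with 3 surrogate variables and its 95% interval (points and bars, red where q < 0.1) and as the plain difference of the mean log2 CPM (crosses). The red points are Prkcb in withdrawal against control (0.18) and Prkcz in withdrawal against ethanol (-0.14), and point and cross lie on opposite sides of 0 for Prkch in ethanol against control (-0.25 and 0.26).

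Of Prkce and Prkch, the calcium-independent isoforms among the 6, Prkce is the more abundant, and its product has been studied in the behavioural response of mice to ethanol. It lay between 220.3 and 283 CPM in the controls (median 245.5), between 162.5 and 316.6 in the ethanol rats (median 215.1) and between 137.5 and 274.7 in the withdrawal rats (median 267.1). Of the ethanol rats, 3 of 6 (rats 1, 3 and 4) lay below all controls and rat 5 lay above them, and 2 withdrawal rats, 1 and 5, lay below all controls. Its log2 fold changes were -0.07 for withdrawal against control (95% interval -0.18 to 0.03, q = 0.445), -0.09 for ethanol against control (-0.21 to 0.02, q = 0.517) and 0.02 for withdrawal against ethanol (-0.10 to 0.14, q = 0.913). The intervals against control leave room for decreases as large as the change called for Prkcb.

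Prkch, an isoform known from T cells and epithelia, was the least abundant of the 6, and in the control and ethanol rats the most variable. It lay between 8.73 and 20.4 CPM in the controls (median 11.9), between 8.41 and 34.2 in the ethanol rats (median 12.3) and between 8.63 and 14.2 in the withdrawal rats (median 10.9), from 297 to 1206 counts per library. Ethanol rat 1 was the highest of all 18 rats and control rat 6 the highest control. The coefficient of variation was 60.5% in the ethanol rats and 17.6% in the withdrawal rats. For ethanol against control the limma-voom log2 fold change was -0.25 (SE 0.12, 95% interval -0.50 to 0.01, q = 0.420), whereas the difference of the mean log2 CPM was 0.26 (exact permutation p = 0.513). For withdrawal against ethanol the signs were opposite as well, with 0.11 (q = 0.692) and -0.42 (exact permutation p = 0.281). For withdrawal against control both were below 0, with -0.13 (q = 0.533) and -0.17. No direction is given for Prkch.

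The atypical isoforms had a small spread within groups, with coefficients of variation of 2.67% to 5.10%. Prkcz, whose products include PKM zeta, lay between 189.9 and 212.9 CPM in the controls (median 201.5), between 210.2 and 225 in the ethanol rats (median 216.4) and between 186.9 and 209.8 in the withdrawal rats (median 192.8). All 6 withdrawal rats lay below all 6 ethanol rats, and the nearest were withdrawal rat 4 at 209.8 and ethanol rat 5 at 210.2. The log2 fold change of withdrawal against ethanol was -0.14 (SE 0.039, 95% interval -0.23 to -0.06) with limma-voom q = 0.086, and the exact permutation test gave p = 0.00216, the smallest that 924 splits allow. Scaled by total counts alone, p was 0.00649, and the groups then overlapped. Prkcz was 1 of 6 isoforms called in this comparison, in which 2.72% of all genes were called (1.49% lower in withdrawal). It was the 1 isoform of 6 without overlap between these groups, against 1.22% of all genes tested. Whole-gene counts do not separate the full-length and the PKM zeta transcripts.

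The call of Prkcz lay close to the threshold. Without surrogate variables q was 0.0684 at a log2 fold change of -0.15, with 2 surrogate variables q was 0.121, and in a model of only the ethanol and withdrawal rats q was 0.223. It was lost in 9 of 18 fits that left out 1 rat, with q = 0.421 without withdrawal rat 6, 0.319 without ethanol rat 2, 0.238 without ethanol rat 3, 0.109 without withdrawal rat 3, and 0.104 to 0.118 without control rats 1, 2, 3, 4 or 6. The log2 fold change in all 18 such fits lay between -0.17 and -0.11. The number of genes called in all was 486 of 17853, and it was 621 without surrogate variables, 260 with 2 surrogate variables, 0 in the model of only these groups, 0 without withdrawal rat 6, ethanol rat 2 or ethanol rat 3, and 350 to 388 without withdrawal rat 3 or control rats 1, 2, 3, 4 or 6. Where limma-voom called 0 genes, the unadjusted limma-voom threshold of 0.05 was passed by 2420 genes in the model of only these groups and by 1917, 2020 and 2178 without the 3 rats in that order. Within the index set that holds the 6 ethanol rats and withdrawal rats 1 and 2, fitted without surrogate variables, the log2 fold change was -0.14 (q = 0.770). In that fit 0 genes were called in all (1067 at the unadjusted threshold). The mean log2 CPM of 5 CA3 and CA2 markers had r = 0.558 with Prkcz across the 18 rats (0.273 without the 2 rats farthest from its median). Their summed level ran from 457 to 719 CPM in the ethanol rats and from 225 to 605 in the withdrawal rats. The log2 fold changes of all 5 markers were below 0 (median -0.16), with none called. The summed level of 5 choroid plexus markers ran from 1399 to 5236 CPM in the ethanol rats and from 27.5 to 5244 in the withdrawal rats. Their mean log2 CPM had r = 0.297 with Prkcz. That of 7 neuronal markers had r = -0.49 with Prkcz (-0.0857 without the 2 rats farthest from its median). The cell type markers called in this comparison were Gfap, Gad2 and Olig2, all higher in withdrawal. The part of these markers in the difference was not tested.

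**Figure D3:**
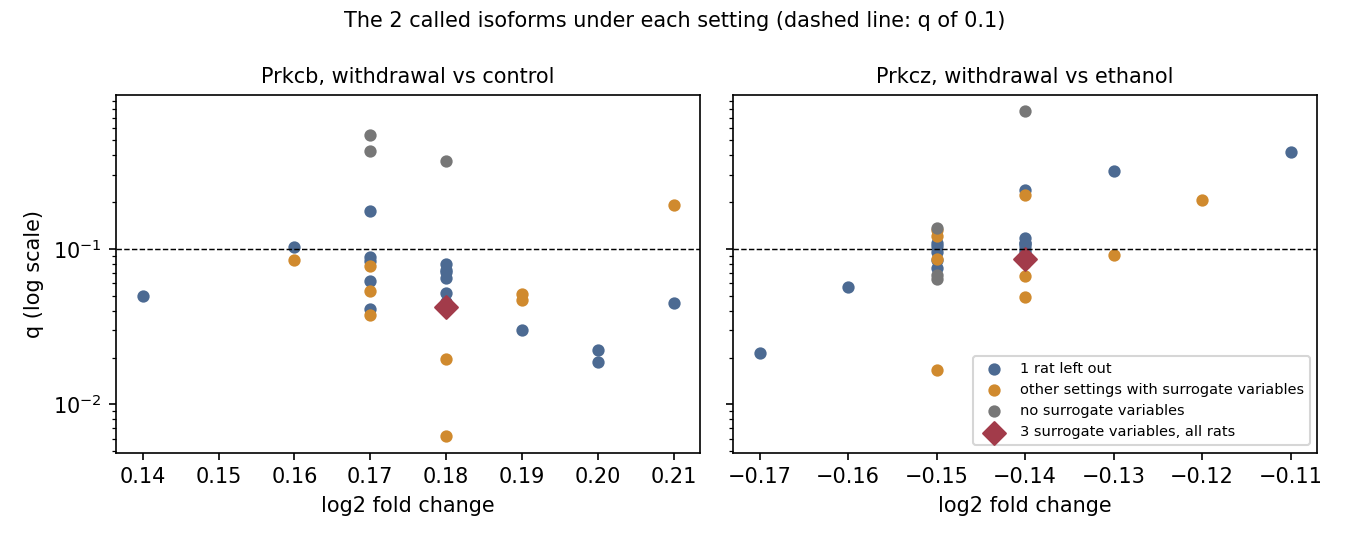
Limma-voom log2 fold change (horizontal axis) and q (vertical axis, log scale) for Prkcb in withdrawal against control and Prkcz in withdrawal against ethanol, with 1 point per setting of the analysis, edgeR and DESeq2 included, and the dashed line at q of 0.1. The fold changes stay within 0.14 to 0.21 for Prkcb and -0.17 to -0.11 for Prkcz, while q lies on both sides of the line for each.

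Between ethanol and control Prkcz had a log2 fold change of 0.11 (SE 0.037, 95% interval 0.03 to 0.18), and 5 of 6 ethanol rats lay above all controls. The exact permutation test gave p = 0.00433, but limma-voom q was 0.249, and the gene was not called. It was 1 of 6 isoforms with an unadjusted p < 0.05 in this comparison, against 12.5% of all genes, and 0.493% of all genes were called. Between withdrawal and control its log2 fold change was -0.04 (95% interval -0.11 to 0.04, q = 0.579).

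Prkci, the atypical isoform of epithelial and neuronal polarity, lay between 106.7 and 116.8 CPM in the controls (median 108.6), between 97.4 and 109.4 in the ethanol rats (median 103.2) and between 105.8 and 119.4 in the withdrawal rats (median 115.3). Of the ethanol rats, 5 of 6 lay below all controls, and 5 of 6 withdrawal rats lay above all ethanol rats. For withdrawal against ethanol the log2 fold change was 0.10 (SE 0.038, 95% interval 0.02 to 0.18) with limma-voom q = 0.193 and exact permutation p = 0.00433. For ethanol against control it was -0.07 (SE 0.036, 95% interval -0.14 to 0.01) with q = 0.461 and exact permutation p = 0.00866. For withdrawal against control it was 0.03 (95% interval -0.04 to 0.10, q = 0.630). Prkci was not called, and without surrogate variables q for withdrawal against ethanol was 0.0684. The exact permutation p-values of the isoforms are raw values from 18 tests of 6 genes in 3 comparisons.

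Over the 6 isoforms together, the median log2 fold change was 0.00 for withdrawal against control, -0.06 for ethanol against control and 0.10 for withdrawal against ethanol, and the medians over all genes tested were 0.00. The median absolute log2 fold changes of the isoforms were 0.06, 0.08 and 0.11, and those of all genes were 0.09, 0.08 and 0.09. At an unadjusted p < 0.05, 3 of 6 isoforms passed for withdrawal against ethanol (Prkcb, Prkci and Prkcz), against 16.7% of all genes. The comparisons share rats, so their values are not independent.

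Some isoforms moved together over the 18 rats. Prkca and Prkce had a Pearson correlation of log2 CPM of 0.959 (Spearman's rho 0.946, and 0.911 without the 2 rats farthest from the median of Prkca), and it was 0.954 within the controls, 0.935 within the ethanol rats and 0.992 within the withdrawal rats. Prkcb went with both less closely, at r = 0.659 with Prkca and 0.618 with Prkce, and between 0.707 and 0.888 within the groups. Prkch instead followed Prkcd (r = 0.940) and Prkcq (r = 0.954), 2 isoforms of its class, but not Prkce of the same class (r = -0.440). Without the 2 rats farthest from the median of Prkch, r was 0.842 with Prkcd and 0.900 with Prkcq. These are descriptions over 18 rats of 3 diet groups, which differed in depth and in markers of other tissue. The part of these in the correlations was not tested.

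Single rats stood at the ends of several isoforms at once. Ethanol rat 1 was the lowest ethanol rat for 4 isoforms, Prkca, Prkcb, Prkce and Prkci, and the highest for the other 2, Prkch and Prkcz. Ethanol rat 5 had the reverse order for all 6. Withdrawal rat 5 was the lowest of its group for Prkca, Prkcb, Prkce and Prkcz, and control rat 6 was the lowest control for Prkca, Prkce, Prkci and Prkcz and the highest for Prkch. Over all rats, Prkca and Prkce had r = 0.886 and 0.871 with the mean log2 CPM of the CA1 markers and -0.700 and -0.699 with that of the thalamic markers. With the mean of 5 endothelial markers r was -0.708 and -0.744, and with Cd3e it was 0.762 and 0.814. Prkch had r = 0.822 with the thalamic mean (rho 0.501, and r = 0.504 without the 2 rats farthest from its median). With the neuronal mean Prkch had r = -0.803 (rho -0.750, and r = -0.438 without the 2 rats farthest from that mean's median). Of 5 T-lymphocyte markers, Cd3e alone passed the expression cutoff, and the part of any marker in the isoform levels was not tested.

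**Figure D4:**
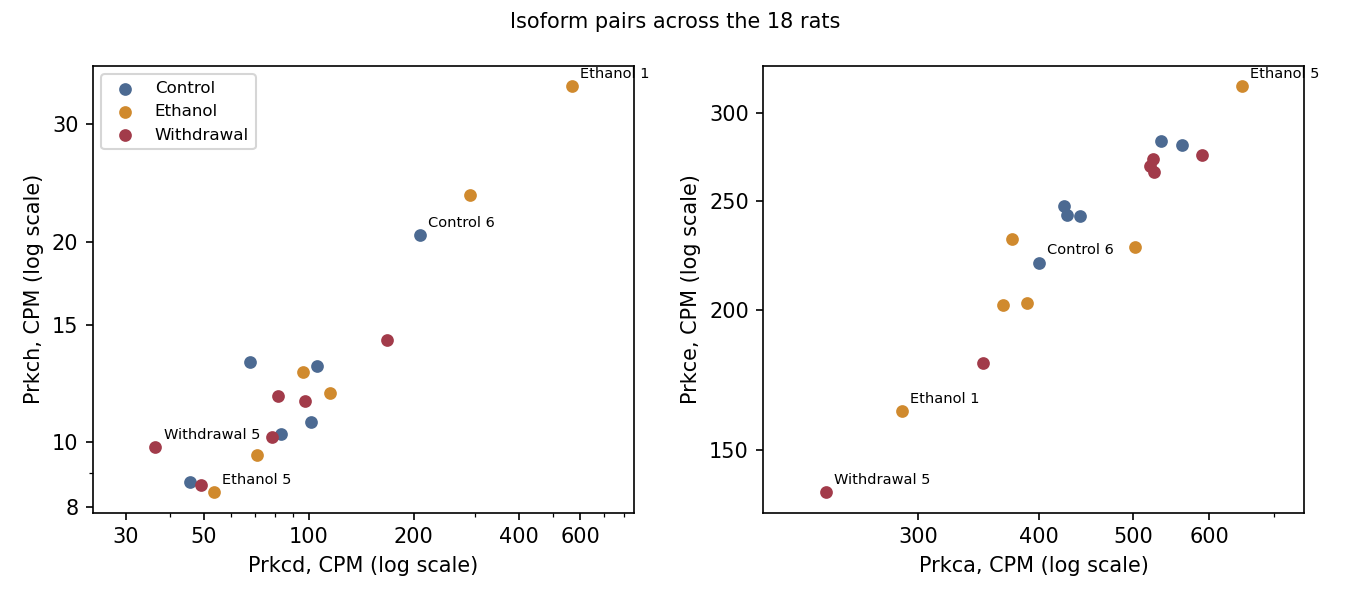
Levels in CPM (log axes) of Prkch against Prkcd and of Prkce against Prkca, with 1 point per rat, coloured by diet group, and 4 rats named. Prkch and Prkcd were both highest in ethanol rat 1 (34.2 and 566 CPM), and Prkca and Prkce were both lowest in withdrawal rat 5 (240.9 and 137.5 CPM) and highest in ethanol rat 5.

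The genes most like each isoform, by Pearson correlation of log2 CPM over the 18 rats among tested genes with a mean of at least 1 CPM, differed between isoforms. For Prkca they were Prickle2 (r = 0.978), Capza2 (0.973) and Wasf1 (0.971). For Prkce they were Camk2a (0.979), the kinase subunit of dendritic calcium signalling, Gria1 (0.977), an AMPA receptor subunit, and Nmt1 (0.975). Prkcb was most like Cyfip2 (0.924), Etv5 (0.907) and Unc13a (0.905). Prkch was most like Ntng1 (0.975), Pygl (0.972) and Nexn (0.972). Prkci was most like Ncbp1 (0.879), Nup58 (0.876) and Stau1 (0.867), and Prkcz was most like Adap1 (0.920), Tmem14c (0.888) and C4h2orf81 (0.868).

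Prkcd and Prkcq, of the same class as Prkce and Prkch, were not called in any comparison. Prkcd lay between 45.7 and 208 CPM in the controls, 53.6 and 566 in the ethanol rats and 36.4 and 167 in the withdrawal rats. Prkcq lay between 13.7 and 40.02 CPM over all rats.

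Genes around the isoforms were taken from lists of upstream enzymes, lipid turnover, priming, anchoring and substrates, 81 of whose 82 genes were tested. For withdrawal against control 0 were called higher and 2 lower, 2.47% of the list against 5.41% of all genes (2.55% lower in withdrawal). Both called were diacylglycerol kinases, which remove the lipid that activates PKC. Dgki lay between 219.9 and 241.9 CPM in the controls and between 177.2 and 218.9 in the withdrawal rats, with no overlap (log2 fold change -0.18, SE 0.055, limma-voom q = 0.0855), while 1.06% of all genes had no overlap between these groups. In ethanol against control its log2 fold change was of like size, -0.18 (SE 0.059, q = 0.220, exact permutation p = 0.00433), with 5 of 6 ethanol rats below all controls, and between withdrawal and ethanol it was -0.01 (95% interval -0.14 to 0.12, q = 0.977). Dgkg lay between 148.2 and 243.8 CPM in the controls and between 73.8 and 207.4 in withdrawal, with overlap (-0.22, SE 0.063, q = 0.0757). Its exact permutation p was 0.242 without surrogate variables, its median was 177.1 CPM in the controls and 181.7 in withdrawal, and 2 withdrawal rats, 1 and 5, lay below all controls. The other 7 diacylglycerol kinases and both diacylglycerol lipases were not called.

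For ethanol against control 1 of 81 list genes was called, and it was higher in ethanol, as were 0.336% of all genes. Rack1, the scaffold that binds activated PKC, lay between 143.6 and 156.1 CPM in the controls and between 162 and 169.7 in the ethanol rats, with no overlap (log2 fold change 0.14, SE 0.032, limma-voom q = 0.0843), while 1.32% of all genes had no overlap. In withdrawal against control Rack1 had 0.09 (limma-voom q = 0.107, exact permutation p = 0.00433), with 5 of 6 withdrawal rats above all controls. In withdrawal against ethanol it had -0.05 (limma-voom q = 0.481, exact permutation p = 0.0173). For withdrawal against ethanol 1 of 81 was called, and it was higher in withdrawal, as were 1.23% of all genes. Unc13a, which encodes the diacylglycerol-binding release factor Munc13-1, lay between 145.9 and 272.1 CPM in the ethanol rats and between 172.7 and 275.8 in the withdrawal rats (log2 fold change 0.16, SE 0.045, limma-voom q = 0.0936). Its exact permutation p was 0.119, and 1 of 6 withdrawal rats lay above all ethanol rats. Each of these 4 calls was lost in 10 or 11 of the 18 fits that left out 1 rat, with q up to 0.277 for Dgkg and 0.292 for Dgki (both without withdrawal rat 6), 0.220 for Rack1 (without control rat 6) and 0.345 for Unc13a (without ethanol rat 2). The log2 fold changes in the 18 fits ran from -0.29 to -0.18 for Dgkg and from -0.21 to -0.16 for Dgki. They ran from 0.13 to 0.16 for Rack1 and from 0.14 to 0.22 for Unc13a. Phospholipase C enzymes, protein kinase D, priming kinases, substrates and inositol trisphosphate receptors held no call.

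**Figure D5:**
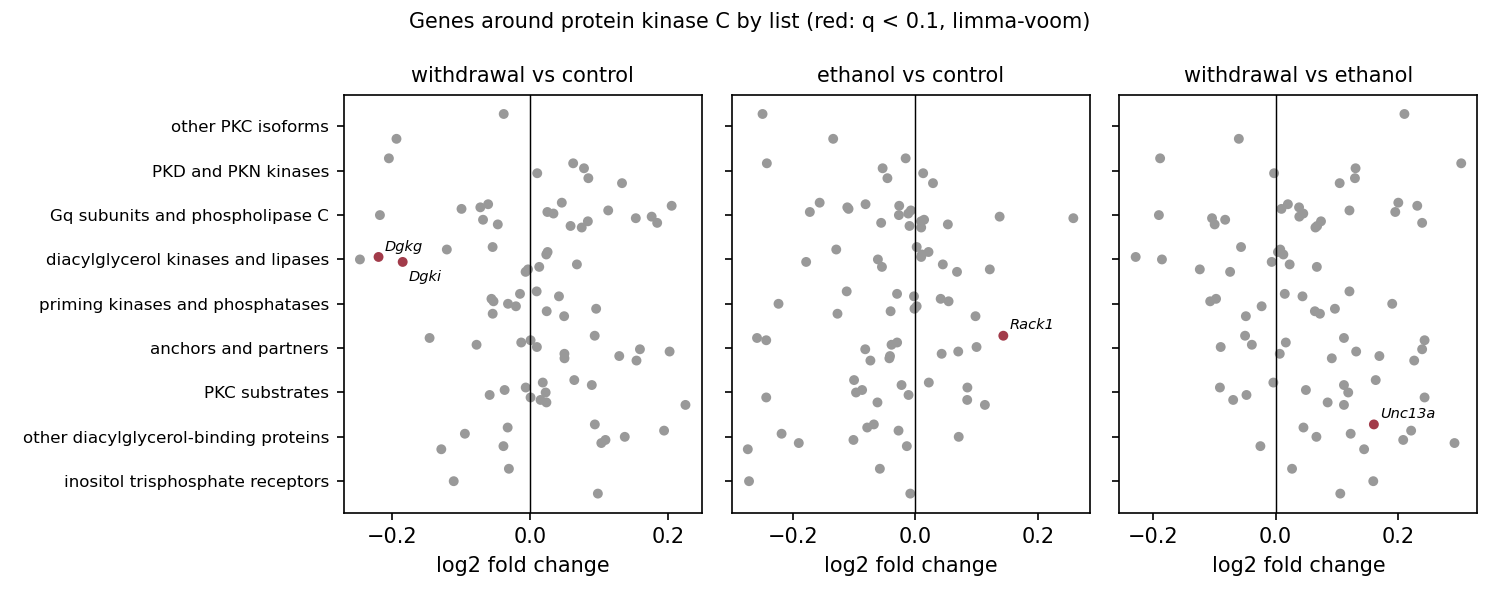
Limma-voom log2 fold changes (horizontal axes) of the 81 tested genes around protein kinase C, grouped by list, in the 3 comparisons, with 1 point per gene and red where q < 0.1. Dgkg and Dgki are red for withdrawal against control, Rack1 for ethanol against control and Unc13a for withdrawal against ethanol.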

How the data were processed

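RNA from the dorsal hippocampus was sequenced as paired-end, stranded libraries. Per the submitters' processing notes and the file headers, the authors used STAR 2.5.2a for alignment (Rnor_6.0, NCBI annotation 106) and featureCounts 1.5.0 for the deposited raw counts of read pairs per gene (exons, by strand, chimeric pairs left out). Groups and replicate numbers came from the sample labels. Gene identifiers were named from RefSeq's table of GRCr8 (29322 of 38445 matched, 9123 did not).

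Genes above 0.5 CPM in at least 1 rat were kept. TMM (edgeR 4.0.16), surrogate variables (sva 3.50.0, from log2 CPM at prior count 2) and limma-voom 3.58.1 in R 4.3.3 were applied to all 18 rats in 1 model, with Benjamini-Hochberg adjustment in each comparison. The study's text does not give the number of surrogate variables, and 3 were used. Single values were tested by two-sided exact permutation of mean log2 CPM. Depth was 30873228 to 42679748 counts on genes. No pair of the 45 within-group pairs of rats matched within sampling noise (lowest chi-square per degree of freedom 5.78). In simulated counts for withdrawal against control, 200 of 17241 genes were changed by 2-fold, 200 were recovered and 17 others were called. Counts were simulated with the same fixed dispersion for all genes. The recovery of smaller changes, such as those of the isoforms, is not reported here.

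Alternatives were other numbers of surrogate variables, edgeR's quasi-likelihood test, DESeq2 1.42.0, other scaling and filters, a threshold of 0.05, models of only the groups compared, a replicate block, leaving out each rat, and rats of 1 index set. The fit of 1 index set had no surrogate variables. edgeR without surrogate variables and scaling by total counts were added after seeing the data. The members and the gene lists were chosen with earlier results of these data known. Named genes are the 6 isoforms, Prkcd and Prkcq, list genes with q < 0.1 (at most 5 a comparison), and the 3 genes most like each isoform. 1 gene of the lists is not reported here. Tables were made with pandas 2.3.3 and numpy 2.4.6 in Python 3.11.15, plots with matplotlib 3.10.9, and permutations with scipy 1.17.1.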

Additional observations from a re-analysis of the deposited data

Results flagged for a closer look

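In each group of 6 rats, the gap of the highest or lowest rat to its neighbour was compared with the range of the group for the genes named with their levels, in 36 groups, of which about 1 in 20 would stand out by chance. No group of the 6 isoforms stood out. Prkcd in control rat 6 was at 208 CPM against 45.7 to 105 in the other controls. Prkcq in the same rat was at 30.1 CPM against 17.2 to 21.7. Prkcd is itself on the list of thalamic markers, and the summed level of the other 5 was also highest among the controls in this rat, at 472 CPM against 217 to 313. The part of this in the values was not tested.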

How the results depend on the processing

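The fold changes of Prkcb (withdrawal against control) and Prkcz (withdrawal against ethanol) kept their direction in every alternative run, and their calls did not. The number of isoforms called for withdrawal against control (1 with 3 surrogate variables) was 0 with no or 1 surrogate variable, with edgeR without surrogate variables, and in the replicate block without surrogate variables. For withdrawal against ethanol (1) it was 0 with 2 surrogate variables, no filter, only the groups compared, q < 0.05 and both replicate blocks, 2 with no, 4 or 5 surrogate variables, DESeq2 and edgeR without surrogate variables, and 4 with 1 surrogate variable. Over the 3 groups (2) it was 0 with no or 2 surrogate variables, q < 0.05, both replicate blocks and edgeR without surrogate variables, 1 with no filter and 3 with 1 surrogate variable. For ethanol against control it was 0 in all alternatives. The share of all genes called moved as well. For withdrawal against control (5.41%) it was 0.23% with no surrogate variables, 0.627% with 1, 3.33% with 2, 7.63% with 4, 1.47% with 5, 9.1% with DESeq2, 1.66% with no filter, 6.6% with only the groups compared, 0.185% with edgeR without them and 0% in the block without them (1839 genes at an unadjusted limma-voom threshold of 0.05). For ethanol against control (0.493%) it was 0.28% with no surrogate variables, 1.45% with 1, 1.24% with 4, 1.8% with 5, 2.65% with DESeq2, 0.0307% with no filter, 0.159% with only the groups compared, 0.347% with edgeR without surrogate variables, and 0% and 0.185% in the block without and with them (1847 genes at an unadjusted limma-voom threshold of 0.05 without). For withdrawal against ethanol (2.72%) it was 3.48% with no surrogate variables, 8.36% with 1, 1.46% with 2, 5.02% with 4, 4.88% with 5, 6.59% with DESeq2, 0.566% with no filter, 0% with only the groups compared (2420 genes at the unadjusted limma-voom threshold), and 0.0784% and 0.0056% in the block without and with surrogate variables.

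Leaving out each rat in turn gave 0 to 1 isoforms for withdrawal against control, 0 to 4 for withdrawal against ethanol and 0 to 3 over the 3 groups, and 0 to 6, 0 to 2 and 0 to 7 list genes for withdrawal against control, ethanol against control and withdrawal against ethanol. All genes called ran from 23 to 1911, from 0 to 258 and from 0 to 1800 in these limma-voom fits. The fits with 0 calls were ethanol against control without control rat 4 (1989 genes at an unadjusted threshold of 0.05) and withdrawal against ethanol without ethanol rat 2, ethanol rat 3 or withdrawal rat 6 (2020, 2178 and 1917 genes), and the 4 isoforms and 7 list genes were found without ethanol rat 5, where 1800 genes were called, and the 6 list genes without withdrawal rat 2, where 1911 were. The list genes called for withdrawal against control (2) were 0 with no, 1 or 5 surrogate variables, no filter, q < 0.05, edgeR without surrogate variables and the replicate block without them, 1 with 2 surrogate variables, 3 with DESeq2 or only the groups compared, and 4 with 4 surrogate variables. For ethanol against control (1) they were 0 with no filter, only the groups compared, q < 0.05 and both replicate blocks, 2 with no surrogate variables and with edgeR without them, 3 with 4 or 5, 4 with 1 and 5 with DESeq2. For withdrawal against ethanol (1) they were 0 with no or 2 surrogate variables, no filter, only the groups compared, q < 0.05, edgeR without surrogate variables and both replicate blocks, 2 with the filterByExpr filter, 6 with 4 surrogate variables or DESeq2, 7 with 5 and 8 with 1. Of the 18 exact permutation tests of the isoforms, scaling by total counts moved 1 across 0.05, Prkcb in withdrawal against control (p = 0.0455 against 0.0584), and RLE scaling moved none. The cause was not tested.

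Directions turned only for fold changes that were not called. With no surrogate variables, in the replicate block without them, and in edgeR without them, the log2 fold changes were -0.073, -0.073 and -0.019 for Prkca (withdrawal against control), -0.08, -0.08 and -0.072 for Prkcb (ethanol against control), 0.26, 0.30 and 0.39 for Prkch (ethanol against control) and -0.43, -0.49 and -0.60 for Prkch (withdrawal against ethanol). With 1 surrogate variable they were -0.084 for Prkcb and 0.27 for Prkch (ethanol against control) and -0.48 for Prkch (withdrawal against ethanol). Prkch (withdrawal against ethanol) was -0.34 within 1 index set, in a fit that also had no surrogate variables. Prkch (withdrawal against control) was 0.0066 with 5 surrogate variables, Prkce (withdrawal against ethanol) -0.0077 with the filterByExpr filter, and Prkca (ethanol against control) 0.019 with only the groups compared. Without 1 rat, Prkcb (ethanol against control) ran from -0.0072 to 0.055 and Prkce (withdrawal against ethanol) from -0.017 to 0.073.

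Rats with the same replicate number in different groups are different animals. Of 18 same-number pairs, 4 had correlated deviations above 0.1 (r from -0.325 to 0.383), and 5 of 18 rats correlated best with their own number. The study states that the rats were pair fed, and the labels do not name the pairs. These correlations cannot show whether the numbers stand for pairs. With the replicate block and 3 surrogate variables, Prkcb kept its call (log2 fold change 0.17, q = 0.0775) and Prkcz lost it (-0.12, q = 0.208). With the block and no surrogate variables q was 0.538 and 0.136. Each isoform had at least 297 counts in every rat.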

Other observations

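The ratio of Prkci to Prkcz counts within a library, which library scaling does not touch, was picked after the values of both genes were seen and is given without a test. It lay between 0.517 and 0.569 in the controls (median 0.557), between 0.433 and 0.521 in the ethanol rats (median 0.479) and between 0.549 and 0.638 in the withdrawal rats (median 0.575). All withdrawal rats lay above all ethanol rats, and the ethanol and control ranges overlapped slightly. As a share of the summed per-kilobase level of the 6 isoforms, Prkcz took 10.9% ± 0.427 in the controls, 12.8% ± 2.11 in the ethanol rats and 10.8% ± 1.74 in the withdrawal rats (SD, n = 6). Prkcb took 26.6% ± 1.24, 27% ± 1.73 and 30.1% ± 2.9 in the same order. These shares move with the annotated exon lengths and with the levels of Prkce and Prkca.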
